A study of Homo sapiens with 6 samples.

Results

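A set of 10 genes of the YAP and TEAD pathway was followed across 6 bead arrays of TT cells, an established human cell line derived from a medullary thyroid carcinoma, a tumour of C cells, the thyroid cells that make calcitonin. The genes were the transcriptional co-activator gene YAP1, its DNA-binding partner TEAD1, the kinase genes LATS1 and LATS2, the regulators AJUBA, AMOTL1 and AMOTL2, and the target genes CCN1, CCN2 and ANKRD1. They were chosen by name, and every probe annotated to one of these symbols was taken, which gave 15 probes among the 47317 with values. AJUBA had 3 probes, and TEAD1, LATS1 and CCN2 had 2 each. The remaining 6 genes (YAP1, LATS2, AMOTL1, AMOTL2, CCN1 and ANKRD1) each rested on a single probe, so nothing on the array checks that probe.

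The cells were untreated, treated with 10 µM Y15 or treated with 10 µM PF-04554878, with 2 arrays per group. Per the study's methods, treatment lasted a day. Y15 is a small molecule directed at the autophosphorylation site of focal adhesion kinase (FAK, encoded by PTK2), and PF-04554878 is an inhibitor of its kinase domain. Per the study's methods, each condition was run on duplicate plates of the same line, the solvent was PBS for Y15 and DMSO for PF-04554878, and the controls received neither. The p-values therefore measure the spread between plates of 1 line, and compound and solvent cannot be told apart. In bulk RNA, fewer cells of a kind and less RNA per cell cannot be told apart. In separate assays, the study reported that most TT cells detached with Y15 at doses in the range used here. It also reported cell death at a lower dose of Y15. The part of detached or dying cells in the values below was not tested.

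YAP and its paralog TAZ are co-activators without a DNA-binding domain of their own. When the Hippo kinases MST and LATS are active, LATS phosphorylates YAP, which is then held in the cytoplasm by 14-3-3 proteins or degraded, and the angiomotins (AMOTL1 and AMOTL2 among them) also bind YAP and keep it from the nucleus. Unphosphorylated YAP enters the nucleus, binds TEAD factors and switches on genes such as CCN1 and CCN2, which encode secreted matricellular proteins, and ANKRD1, which encodes an ankyrin repeat protein. LATS2 and AMOTL2 are themselves targets that feed back on YAP, and the LIM protein AJUBA restrains LATS. Much of the pathway is thus controlled by phosphorylation and by location, neither of which an mRNA array measures.

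TEAD factors bind the core motif CATTCC, which reads GGAATG on the other strand. The 250 bases before the annotated start site of CCN2, ANKRD1 and AMOTL2 are shown because each is a YAP target with this core before its start, and because CCN2 and AMOTL2 carried the measurable changes described below. The sequences are RefSeq's on GRCh38.p14, each written 5′ to 3′ along its gene, with the core in capitals on either strand. CCN2 lies at chr6:131951373-131951622 (minus strand), ANKRD1 at chr10:90921088-90921337 (minus strand) and the second annotated AMOTL2 start at chr3:134374448-134374697 (minus strand).
CCN2: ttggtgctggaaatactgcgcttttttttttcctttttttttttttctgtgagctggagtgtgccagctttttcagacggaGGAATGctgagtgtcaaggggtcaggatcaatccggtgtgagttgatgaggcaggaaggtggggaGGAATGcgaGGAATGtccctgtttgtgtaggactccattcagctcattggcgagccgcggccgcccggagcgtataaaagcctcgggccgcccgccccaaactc
ANKRD1: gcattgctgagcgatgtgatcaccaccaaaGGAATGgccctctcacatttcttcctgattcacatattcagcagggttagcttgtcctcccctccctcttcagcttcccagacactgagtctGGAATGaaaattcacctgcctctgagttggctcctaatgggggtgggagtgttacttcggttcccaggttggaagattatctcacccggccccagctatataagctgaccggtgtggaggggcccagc
AMOTL2: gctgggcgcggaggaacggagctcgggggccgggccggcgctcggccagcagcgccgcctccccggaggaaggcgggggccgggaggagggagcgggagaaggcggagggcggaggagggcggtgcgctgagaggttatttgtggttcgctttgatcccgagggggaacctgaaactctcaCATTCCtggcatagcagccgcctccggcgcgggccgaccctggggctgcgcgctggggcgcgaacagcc
CCN2 had 3 copies of the core, at -169, -104 and -95 (the position of the first base of the match relative to the start), and the last 2 lie almost side by side. ANKRD1 had 2, at -220 and -128, and AMOTL2 had 1, at -69. Promoter windows of 300 bases (250 before and 50 after the start) were given for 8 of the 10 genes, with 11 windows in all. At least 1 copy on either strand was present in 6 of the 11 windows, from 6 genes. The others with a copy were YAP1, AJUBA and LATS2, and the LATS2 copy lies after the start. AMOTL2 and AJUBA each had a copy at the second annotated start and none at the first. The same core was present in 14.0% of all 35114 windows. A loose AP-1 pattern, TGANTCA with any base at N, was found in ANKRD1 (TGATTCA) and LATS1 (TGAATCA) and in 7.71% of all windows. Neither match has the C or G that the usual AP-1 site holds at N, and neither overlapped a TEAD core. A match is a string of letters, and no binding was measured here.

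Most of the pathway was below the detection limit. A probe was called detected on an array at a detection p below 0.01, the scanner software's rank of the probe against negative control beads. Of the 15 probes, 11 from 8 genes were detected on no array: all those of YAP1, LATS1, LATS2, AJUBA, AMOTL1, CCN1 and ANKRD1, and the second probe of TEAD1. A probe was tested if it was detected on at least 2 arrays, and 4 probes from 3 genes met this: both CCN2 probes, AMOTL2 and the first TEAD1 probe. That is 30% of the 10 genes, against 56.8% of the 20045 named genes on the array.

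**Figure D1:**
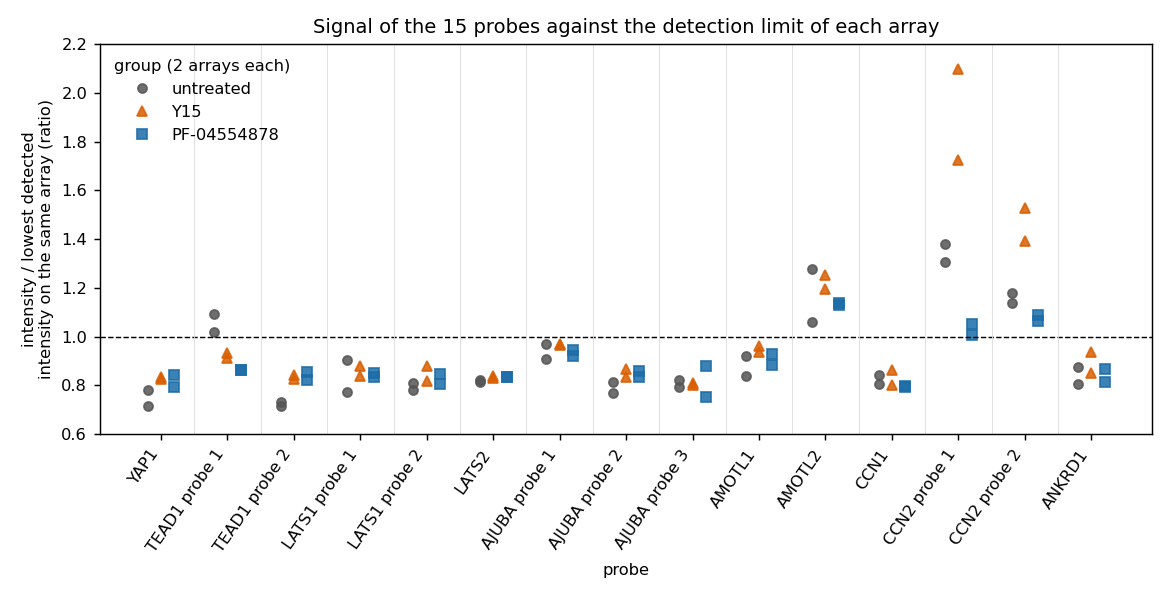
Signal of each of the 15 probes on each of the 6 arrays (symbols, 2 arrays per group), given as the deposited intensity divided by the lowest intensity of any detected probe on that array (ratio, linear axis); the dashed line marks the limit. The CCN2 and AMOTL2 probes lie above the line on all 6 arrays, TEAD1 probe 1 lies above it on the untreated arrays alone, and the other 11 probes lie below it throughout.

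The depth of the arrays differed between groups, which bears on probes this dim. Between 15215 and 18488 probes were detected per array, with the highest numbers on the untreated arrays. The intensity of probes with a detection p of 0.4 to 0.6, a measure of background, reached 118.7 and 114.5 untreated, 93.9 and 92.2 with Y15 and 107 and 105.6 with PF-04554878. Averaged over all probes, the net signal after a normal-exponential background correction came to 423.5 and 355.9 untreated, 171 and 182.3 with Y15 and 254.5 and 244.3 with PF-04554878. An unnormalized intensity can thus be lower with either compound for any gene, and the comparisons below use log2 intensities after quantile normalization over all probes.

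YAP1, the co-activator itself, gave intensities of 106.9 and 106.1 on the untreated arrays, 90.8 and 88.5 with Y15, and 100.1 and 104.1 with PF-04554878. These values were below the background just given on all 6 arrays, and the lowest detection p of the probe was 0.62857. YAP1 mRNA was therefore not measurable with this probe, which does not show that it was absent.

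TEAD1, the transcription factor through which YAP acts, had a detected signal on the untreated arrays alone. Its first probe gave intensities of 152.2 and 148.7 untreated, 100.6 and 98.7 with Y15, and 108.6 and 106.6 with PF-04554878. Its second probe gave 107 and 99.8 untreated, 90.8 and 89.2 with Y15, and 103.5 and 105.5 with PF-04554878, detected nowhere. At the first probe the 2 untreated arrays lay just above the detection limit, at 1.02 and 1.09 times the lowest detected intensity. Their unnormalized values were above the 4 treated ones, as they were for most probes. Without background correction or normalization the probe differed by -0.59 with Y15 and -0.48 with PF-04554878. The medians over all tested probes were -1.03 and -0.62. At the second probe the untreated arrays were below their own background. After normalization the first probe read 6.95 and 6.98 untreated, 6.83 and 6.82 with Y15, and 6.74 and 6.73 with PF-04554878. The fitted difference was -0.14 ± 0.08 (SE) for Y15 (limma, adjusted p = 0.23) and -0.23 ± 0.08 for PF-04554878 (limma, adjusted p = 0.041), the latter under the 1.2-fold minimum, so neither passed. Both were set against arrays on which the probe was not detected, and no fold is given as a bound, since the untreated mean lay under the mean detection limit of the treated arrays after normalization. The probe entered the test only through the untreated group, where it was brightest. The outcome also rested on the processing: with PF-04554878 the probe passed as lower with either background correction (-0.32 and -0.73) and with median scaling over all probes (-0.31), with Y15 it passed as lower with the stronger background correction (-0.50), and with median scaling over the tested probes it passed as higher with both compounds.

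The LATS kinases, which phosphorylate YAP, were not measurable. LATS1 gave 115.6 and 123.2 untreated, 92.3 and 93.1 with Y15, and 104.8 and 105.1 with PF-04554878 at its first probe, and its second probe was equally dim. LATS2, also a YAP target, gave 122.9 and 111 untreated, 92.3 and 88 with Y15, and 104.8 and 102.7 with PF-04554878. All 18 of these detection p-values, over 3 probes and 6 arrays, were above 0.1.

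AJUBA came closest to detection among the dim genes. Its first probe gave 135.5 and 131.9 untreated, 106.2 and 102.7 with Y15, and 119 and 113.5 with PF-04554878. The detection p was below 0.05 on 5 of the 6 arrays, with a lowest value of 0.02208, and normalized values ran from 6.83 to 6.95, with the PF-04554878 arrays overlapping both other groups. The other 2 AJUBA probes lay in the background. AMOTL1, the angiomotin family member that binds YAP through the same kind of motif as AMOTL2, gave 125.1 and 125.4 untreated, 105.7 and 99.2 with Y15, and 116.7 and 109.2 with PF-04554878, and its detection p was below 0.05 on 1 array, a Y15 array.

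The classical YAP targets CCN1 and ANKRD1 were in the background in every group. CCN1, a matricellular protein close to CCN2, gave 120.5 and 114.7 untreated, 88.4 and 91.3 with Y15, and 100.3 and 97.9 with PF-04554878. ANKRD1 gave 120.3 and 119.1 untreated, 93.8 and 99.3 with Y15, and 109.1 and 100.3 with PF-04554878. Its promoter window holds the 2 TEAD cores shown above. Over the 11 undetected probes the normalized values spanned 6.52 to 6.95, and the range of a single probe over the 6 arrays was 0.09 to 0.21. When these probes were tested without the detection filter, 0 of 11 passed in any comparison with limma, with differences from -0.09 to 0.11 for Y15 (lowest adjusted p 0.3) and from -0.11 to 0.14 for PF-04554878 (lowest adjusted p 0.13). At this depth a fall in these genes was not detectable, nor was a rise that left the probe under the detection limit. None of the 11 probes reached that limit with either compound.

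CCN2, which encodes connective tissue growth factor, had the larger of the 2 rises among the members with Y15. Its first probe gave intensities of 194.8 and 187.6 untreated, 189.9 and 222.2 with Y15, and 126.7 and 129.5 with PF-04554878. The unnormalized signal with Y15 thus overlapped that of the untreated arrays, on arrays whose background and mean signal were lower. After subtraction of the background the same arrays read 74.5 and 72.2, 95.3 and 129.5, and 19 and 23.2. Here the Y15 arrays were the highest pair and the PF-04554878 arrays the lowest. After quantile normalization the log2 values were 7.14 and 7.17 untreated, 8.14 and 8.34 with Y15, and 7.06 and 7.12 with PF-04554878, so that both Y15 arrays stood clear of the other 4.

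The difference between Y15 and untreated cells was 1.08 ± 0.10 (SE, n = 2 per group) on the log2 scale, with a 95% interval of 0.86 to 1.30, a 2.12-fold higher value (limma, adjusted p = 0.00016). Between PF-04554878 and untreated cells it was -0.07, with an interval of -0.29 to 0.15 (limma, adjusted p = 0.56), and an interval of that width leaves out a change of the size seen with Y15. The direct comparison of the compounds gave 1.15 ± 0.10, or 2.22-fold higher with Y15 (limma, adjusted p = 2.7e-05). The order of CCN2 levels at this probe was Y15, then untreated and PF-04554878, and the last 2 did not differ beyond their spread.

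The second CCN2 probe moved the same way with Y15. It gave intensities of 176.3 and 154.6 untreated, 153.3 and 161.7 with Y15, and 137.2 and 131.3 with PF-04554878, and normalized values of 7.06 and 7.01, 7.75 and 7.81, and 7.22 and 7.15. The Y15 arrays were again above the other 4. The difference was 0.74 ± 0.09, or 1.67-fold, for Y15 against untreated (limma, adjusted p = 0.00048) and 0.59 ± 0.09, with an interval of 0.39 to 0.79, for Y15 against PF-04554878 (limma, adjusted p = 5e-04). For PF-04554878 against untreated it was 0.15, with an interval of -0.04 to 0.35 (limma, adjusted p = 0.16). The PF-04554878 arrays read below the untreated ones at the first probe and above them at the second, with neither difference past the test.

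The size of the CCN2 rise with Y15, and whether it passed, depended on the processing. With median scaling over all probes it was 0.46 at the first probe and 0.29 at the second, and with the stronger background correction it was 2.10 and 1.75, all past the test (limma, adjusted p from 0.00026 to 0.023). With neither background correction nor normalization it was 0.10 and -0.068, not passed. With background correction but no normalization the second probe was at 0.23, not passed. The difference between the compounds at the first probe passed in all 21 settings tried. Several of these changed only the filter, the variance or the model and kept the same log2 difference. The PF-04554878 comparison of CCN2 changed direction with the scaling. Scaling each array to its median over all probes gave -0.41 for PF-04554878 against untreated at the first probe (limma, adjusted p = 0.012), and scaling over the tested probes gave 0.35 (adjusted p = 0.015). The direction of CCN2 with PF-04554878 is therefore not settled by these arrays.

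AMOTL2, an angiomotin that binds YAP and is also a YAP target, was higher with Y15 by a smaller amount. Its intensities were 158.4 and 173.6 untreated, 131.8 and 132.8 with Y15, and 143.5 and 139.4 with PF-04554878. The unnormalized values of both treated groups lay below the untreated ones, and normalization turned the order round: the log2 values were 6.98 and 7.11 untreated, 7.45 and 7.45 with Y15, and 7.32 and 7.26 with PF-04554878. The difference was 0.41 ± 0.09, with an interval of 0.21 to 0.61, or 1.33-fold higher, for Y15 (limma, adjusted p = 0.0082), and 0.25 ± 0.09, or 1.19-fold, for PF-04554878 (limma, adjusted p = 0.038), just under the fold minimum. The compounds differed from each other by 0.16, with an interval of -0.04 to 0.36 (limma, adjusted p = 0.15). The AMOTL2 call rested on the scaling and on single arrays. It was 0.03 with median scaling over all probes (limma, adjusted p = 0.76), and it no longer passed without untreated replicate 1 (0.30, adjusted p = 0.064) or without Y15 replicate 1 (0.44, adjusted p = 0.051).

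**Figure D2:**
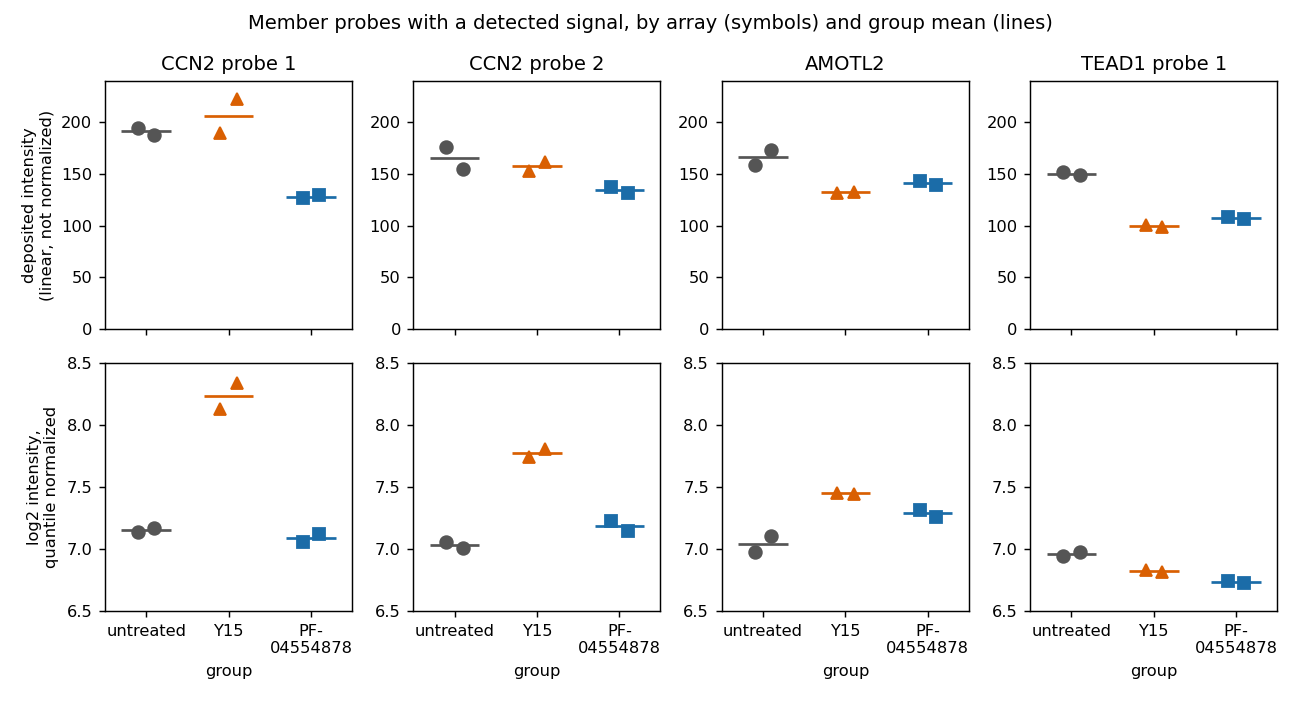
The 4 tested probes on each array, as deposited intensity (upper row, linear axis from 0) and as quantile-normalized log2 intensity (lower row); symbols are arrays and lines are group means of 2 arrays. In the lower row the CCN2 values with Y15 (8.14 and 8.34 at probe 1) stand above all other arrays, the AMOTL2 values of both treated groups stand above the untreated ones, and those of TEAD1 stand below them.

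Read against all features, the counts among the members are small. With Y15, 2 of the 3 tested genes were higher (CCN2 and AMOTL2) and none was lower, where 16.7% of the 11388 tested genes were higher, 21.4% were lower and 38.1% passed in either direction. A 2-fold rise such as that of the first CCN2 probe was found at 3.05% of all tested probes. With PF-04554878, 0 of 3 genes passed, where 62.2% of all tested genes did, 27.2% higher and 35% lower. Between the compounds 1 of 3 genes passed, CCN2, higher with Y15, where 32.9% of tested genes were higher with Y15, 27.6% were lower and 60.6% passed in either direction, and 6.98% of probes were at least 2-fold higher. All 4 tested member probes had groups that did not overlap in all 3 comparisons, and so did 73% of tested probes for Y15 against untreated, 81.4% for PF-04554878 against untreated and 80.4% between the compounds. The 3 tested genes are those that were bright enough, and they do not stand for the 10.

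**Figure D3:**
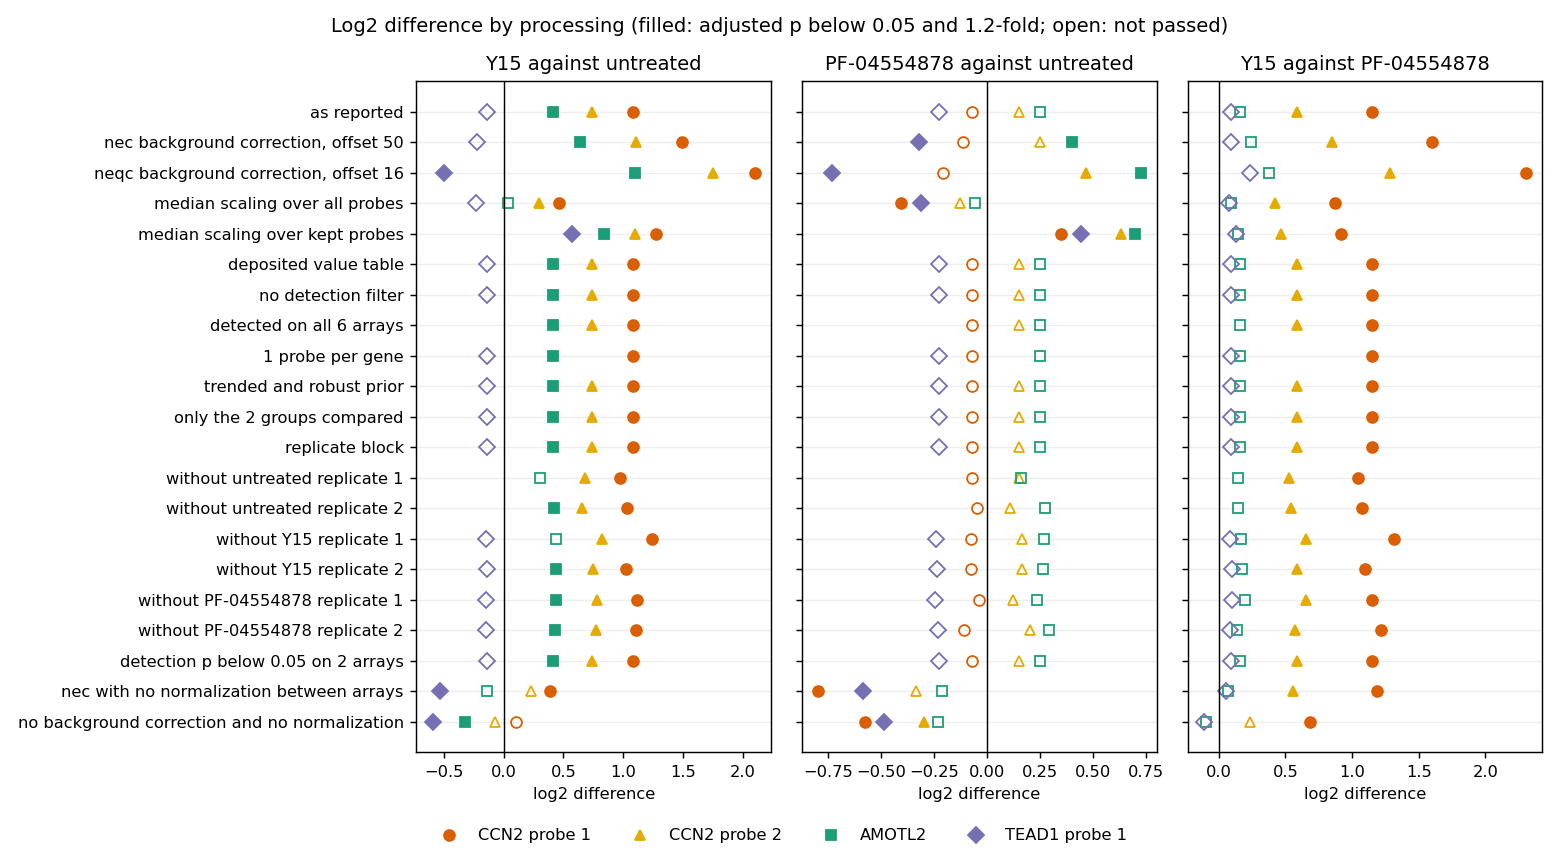
Log2 difference (x axis) of the 4 tested probes under the reported processing and 20 alternatives (rows), for the 3 comparisons; filled symbols passed an adjusted p below 0.05 and a 1.2-fold difference, open symbols did not. CCN2 probe 1 (circles) is higher with Y15 than with PF-04554878 and filled in every row. In that comparison the symbols of AMOTL2 and TEAD1 are open wherever they were tested. Against untreated cells the symbols of AMOTL2, TEAD1 and CCN2 all cross 0 when the processing is changed. For CCN2 probe 1 this happens with PF-04554878 alone, and for the other CCN2 probe with either compound.

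The genes with the pattern most like that of CCN2 over the 6 arrays, by the root mean square distance of mean-centred log2 values among 11387 other genes, were FUT1 (distance 0.05), ZNF697 (0.08) and UTP3 (0.08), against a median distance of 0.59. FUT1, which encodes a fucosyltransferase, read 7.30 and 7.32 untreated, 8.31 and 8.43 with Y15, and 7.28 and 7.37 with PF-04554878. UTP3, a protein of ribosome biogenesis, differed by 1.23 with Y15 and by -0.10 with PF-04554878.

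Few partners of YAP1 and TEAD1 were detected. Of 8 TEAD factors, VGLL cofactors and the YAP paralog gene WWTR1, which encodes TAZ, 3 were tested. WWTR1 read 6.97 and 6.93 untreated, 6.89 and 6.94 with Y15, and 6.72 and 6.69 with PF-04554878, was detected on the untreated arrays alone, as TEAD1 was, and passed in no comparison. VGLL4, a cofactor that competes with YAP for TEAD, differed by 0.17 with Y15 and by -0.05 with PF-04554878 and did not pass. TEAD4 read 7.21 and 7.19 untreated, 7.11 and 7.12 with Y15, and 6.82 and 6.76 with PF-04554878, and was undetected on both PF-04554878 arrays. It was at least 1.12-fold lower with PF-04554878 (limma, adjusted p = 0.0029), a bound against the detection limit, and the direction turned with median scaling over the tested probes. TEAD2, TEAD3, VGLL1, VGLL2 and VGLL3 did not reach 2 detected arrays.

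The Hippo kinases and scaffolds other than LATS1 and LATS2, by contrast, were nearly all present. Of 17 such genes on the array, 16 were tested (94.1%). With Y15, 1 rose (TAOK1, a kinase that activates MST, by 0.40) and 2 fell, where 16.7% and 21.4% of all tested genes did. The 2 that fell were MAP4K4, a kinase acting beside MST, by 0.65 on the log2 scale, and STK38, a relative of LATS, by 0.36. The rise of TAOK1 turned sign with median scaling over all probes. With PF-04554878, 8 rose and 1 fell (TAOK2, by 0.55, with its other probe at 0.28), where 27.2% and 35% of all tested genes did, and the median of the 16 was 0.25 against -0.07 over all tested genes. MOB1A, the adaptor that activates LATS, read 7.44 and 7.28 untreated, 7.28 and 7.31 with Y15, and 8.77 and 8.88 with PF-04554878, a difference of 1.46 (limma, adjusted p = 6.3e-06), though its other tested probe read -0.52. STRN4, a striatin that scaffolds a phosphatase acting on MST, was higher by 1.24 with PF-04554878 and by 0.91 at its other probe. With median scaling over all probes the list's counts with PF-04554878 became 1 higher and 11 lower, under a shift of the median gene to -0.59. Between the compounds, 1 gene was higher and 9 lower with Y15, where 32.9% and 27.6% of all tested genes were. With that scaling the list's counts were 1 and 8.

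Upstream regulators at junctions and polarity complexes were detected for 20 of 26 genes. FRMD6, a FERM domain protein that acts above the Hippo kinases, read 8.27 and 8.24 untreated, 7.43 and 7.39 with Y15, and 7.11 and 7.11 with PF-04554878. It was lower with both compounds, at -0.85 with Y15 (limma, adjusted p = 0.00022) and -1.14 with PF-04554878 (adjusted p = 1.1e-05), with its other probe at -0.77 and -0.87. WWC1, which encodes the scaffold KIBRA, differed by -0.42 and -0.44. CRB3, a polarity protein of the Crumbs complex, went opposite ways, at 0.46 with Y15 and -1.46 with PF-04554878, and the compounds differed by 1.92 (limma, adjusted p = 2.7e-06). The polarity kinase genes MARK2 and MARK3 were higher with PF-04554878, by 1.87 and 1.73, with the other 2 probes of MARK2 at 0.85 and 0.75. The rise of CRB3 with Y15 turned sign with median scaling over all probes and its other probe read -0.04. In all, 1 rose and 3 fell with Y15, where 16.7% and 21.4% of all tested genes did. With PF-04554878 6 rose and 4 fell, so that 10 of 20 passed, where 62.2% of all tested genes did.

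The genes that hold YAP in the cytoplasm, degrade it or remove its phosphates were all tested (18 of 18). Of these, 3 rose and 6 fell with Y15 (16.7% and 21.4% over all tested genes), and 7 rose and 7 fell with PF-04554878 (27.2% and 35% over all tested genes). The 14-3-3 genes did not move as one. YWHAB (-0.48 and -0.66), YWHAQ (-0.35 and -0.49) and YWHAZ (-0.32 and -0.45) were lower with Y15 and with PF-04554878. The other probes of YWHAB and YWHAZ also read negative. YWHAE was higher with PF-04554878 alone (0.66), and YWHAH passed with neither compound. YWHAG read 10.31 and 10.48 untreated, 11.25 and 11.30 with Y15, and 11.40 and 11.37 with PF-04554878, a rise of 0.88 and 0.99. SFN differed by 0.42 with Y15 (limma, adjusted p = 0.025) and by -0.80 with PF-04554878 (adjusted p = 0.00049), so that it rose with one compound and fell with the other. BTRC, the ubiquitin ligase subunit that marks phosphorylated YAP for degradation, was lower with Y15 (-0.32) and higher with PF-04554878 (1.16), and the compounds differed by -1.48 (limma, adjusted p = 4e-06). The Y15 rises of YWHAG and SFN turned sign with median scaling over all probes, as did that of PPP2CA, a phosphatase subunit gene, and the Y15 difference of BTRC turned with scaling over the tested probes.

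Of 28 YAP and TAZ target genes beyond the members, 10 were tested (35.7%, against 56.8% of all named genes), and those that moved with Y15 went both ways. GADD45A, a stress-induced growth arrest gene as well as a YAP target, read 8.22 and 8.28 untreated, 9.96 and 9.88 with Y15, and 8.24 and 8.33 with PF-04554878. It rose by 1.67 with Y15 (limma, adjusted p = 1.4e-05) and differed by 0.04 with PF-04554878. NUAK2, a kinase, rose by 0.67 with Y15, with its other probe at 0.09, and MYC rose by 0.45, with its other probe at 0.41. With PF-04554878 MYC fell (-0.76, limma, adjusted p = 0.0003).

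The other 3 targets that passed went the other way with Y15. BIRC5, which encodes the inhibitor of apoptosis survivin, read 10.15 and 10.19 untreated, 8.95 and 8.91 with Y15, and 10.01 and 10.09 with PF-04554878, a fall with Y15 (-1.24, limma, adjusted p = 4.9e-05). Its other probe read -0.35 with Y15 and 1.69 with PF-04554878, so BIRC5 has no single value with the latter. FJX1, a homolog of the fly Hippo regulator four-jointed, was lower with both compounds, at -1.09 and -1.54. TGFBR2, a TGF-beta receptor, was lower with Y15 at -0.41. In all, 3 rose and 3 fell with Y15, and 0 rose and 2 fell with PF-04554878, where 38.1% and 62.2% of all tested genes passed. The signs of GADD45A, BIRC5, FJX1 and TGFBR2 with Y15 held under each of the 4 other scalings and background corrections tried on these lists, whereas those of NUAK2 and MYC turned with median scaling over all probes. THBS1, AXL, MYOF and EDN1, further widely used YAP targets, were not detected on any array.

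**Figure D4:**
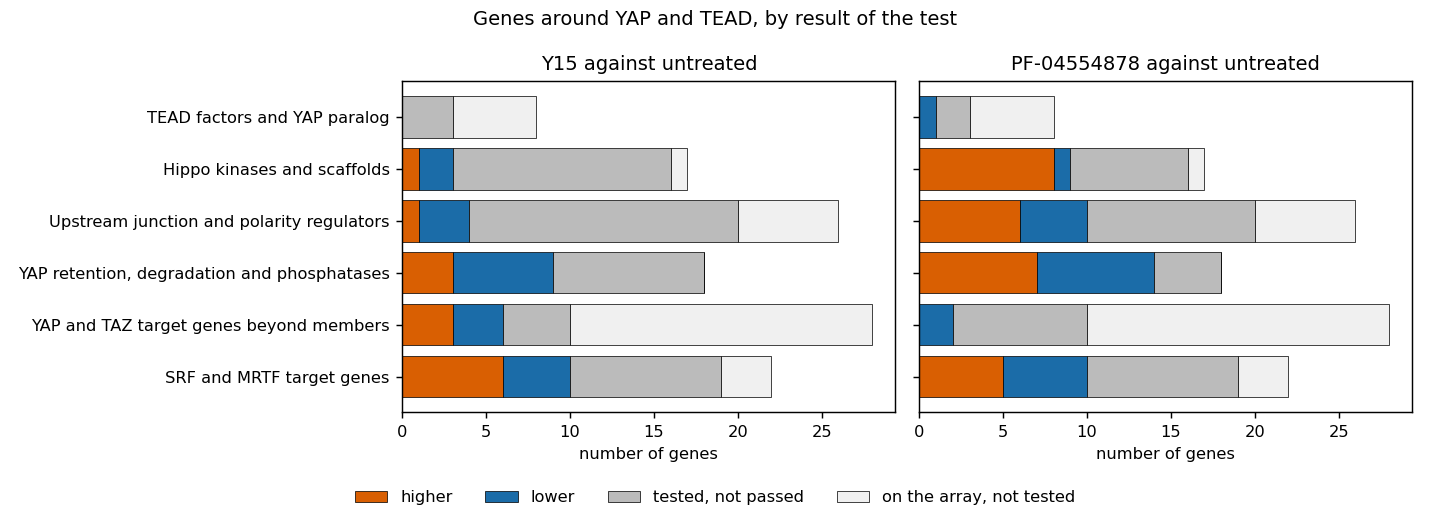
Number of genes (x axis) in 6 lists around YAP and TEAD (rows) that were higher, lower, tested without passing, or on the array and not tested, for Y15 and for PF-04554878 against untreated cells. The TEAD factors and the target genes are mostly untested (3 of 8 and 10 of 28 tested), whereas 16 of 17 Hippo kinases and scaffolds were tested, of which 8 rose with PF-04554878 and 1 with Y15 (27.2% and 16.7% over all tested genes).

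Relatives of CCN2 and genes that share its triggers completed the comparison. In the CCN family, CCN3 read 7.09 and 7.04 untreated, 7.54 and 7.47 with Y15, and 8.85 and 8.47 with PF-04554878. It rose by 0.44 and by 1.59 (limma, adjusted p = 0.026 and 1.6e-05), so that among the compounds CCN3 was highest with PF-04554878 and CCN2 with Y15. CCN6 rose by 0.41 with PF-04554878, which turned sign with median scaling over all probes, and CCN4 and CCN5 were not detected. CCN2 is also a target of SRF and its co-activator MRTF, which answer to actin. The SRF motif CCWWWWWWGG, with A or T at W, was found in 0 of the 11 promoter windows, that of CCN2 included. It was present in 1.29% of all windows. Of 22 SRF and MRTF targets, 19 were tested, with 6 higher and 4 lower with Y15 and 5 higher and 5 lower with PF-04554878, against 38.1% of all tested genes that passed with Y15 and 62.2% with PF-04554878. FHL2, a LIM protein, was higher with Y15 (0.80) and lower with PF-04554878 (-1.01), and the compounds differed by 1.81 (limma, adjusted p = 1.1e-05). VCL, which encodes vinculin, was lower with both at the probe that represents it (-0.62 and -0.51), and its other probe read -0.38 and -0.02. ACTA2, the smooth muscle actin gene, was at least 1.78-fold higher with PF-04554878 than untreated, where it was not detected, and it entered the test only through the PF-04554878 arrays. Of 8 relatives of AJUBA and ANKRD1, 4 were tested. With Y15 1 was higher (ZYX, which encodes zyxin, by 0.50, with its other probe at 0.03) and 1 lower (LPP, a relative of zyxin, at -0.69, narrowly past the threshold), and with PF-04554878 none passed. The shares of all tested genes that passed were again 38.1% and 62.2%. The rises of FHL2 and ZYX with Y15 turned sign with median scaling over all probes.

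PTK2, the gene of the protein that both compounds are aimed at, read 11.35 and 11.42 untreated, 11.21 and 11.12 with Y15, and 11.77 and 11.38 with PF-04554878. It passed against untreated cells with neither compound, and was lower with Y15 than with PF-04554878 by a difference of -0.41 (limma, adjusted p = 0.023). The identity of the cells was checked with markers. All 13 C-cell and neuroendocrine markers were detected on the untreated arrays, and 0 of 8 thyroid follicular markers was detected on any array. Of 8 fibroblast and 6 endothelial markers, at most 1 and 2 were detected on an array, and of 5 immune markers 2 were detected on each. After normalization, 0 of the 13 C-cell markers were higher and 7 were lower with Y15 (median -0.44, against -0.05 over all tested genes), among them RET (-0.90) and SCG3 (-0.89), and 4 were higher and 2 lower with PF-04554878 (median 0.04). Over all tested genes 16.7% were higher and 21.4% lower with Y15, and 27.2% and 35% with PF-04554878. With median scaling over the tested probes 3 of the C-cell markers were higher and 7 lower with Y15. Their summed net signal, not normalized between arrays, was 109300 to 118200 untreated, 52540 to 54250 with Y15 and 96450 to 102900 with PF-04554878. Of the 2 tested immune markers, CD68, a lysosomal protein abundant in macrophages and also made by other cells, was higher with Y15 (1.89, limma, adjusted p = 4.8e-05) and with PF-04554878 (1.22, adjusted p = 7.7e-05), with its other probe at 0.14 and 0.45. CD14 differed by 0.20 (not passed) and 0.40 (higher). PTPRC, the pan-leukocyte marker, was detected on no array, and the summed net signal of the 5 immune markers was 503.9 to 520 untreated, 459.7 to 487.1 with Y15 and 455.2 to 521.3 with PF-04554878. The part of these markers in the CCN2 result was not tested.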

How the data were processed

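RNA of the 6 cultures was hybridised to Illumina bead arrays. The study's methods name a HumanRef-8 chip, whereas the deposited probe identifiers match the HumanHT-12 v4 annotation, which was used here. The deposited table holds, per probe and array, a summarised intensity without normalization and a detection p-value from GenomeStudio, both made by the authors. The deposited series values are log2 intensities on the quantile-normalized scale, and differed from values computed here by at most 5e-09. Intensities of 47317 probes were quantile normalized without background correction and log2 transformed (R 4.3.3, limma 3.58.1). Probes with a detection p-value below 0.01 on at least 2 arrays (18876) were fitted over all 6 arrays in limma, as group means, with Benjamini-Hochberg adjustment over all tested probes. A call needed an adjusted p below 0.05 and a 1.2-fold difference. A gene was represented by its tested probe with the highest mean, 11388 genes in all. No probe's level was compared with that of another. Probe symbols came from the platform annotation, of which 30111 probes had 1 gene, 8 several and 17198 none, and 30072 symbols were updated through RefSeq. Net signals are intensities after a normal-exponential correction without offset (nec).

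Genes named were all members, the 3 nearest patterns, PTK2 and a part of each list. The plan was to name the up to 4 genes with the largest change among those that passed in each list, and members of counts of 5 or fewer. It was not followed throughout, and some list genes were named after their values were seen. Left out, for example, were PPP1CB (1.58 with PF-04554878, its other probe at 0.22) and TPM2 (1.08 with PF-04554878), both higher. SCRIB (-0.60 with Y15) and RASSF5 (-1.09 with PF-04554878, its other probe at 0.33), both lower, were also left out. The named genes therefore do not stand for their lists. Members and lists were chosen with earlier results of these data known. The fit was also run on simulated normal values with few changed probes and no normalization step. That setting differs from these arrays, so it does not bear on their differences in depth. Alternatives covered background correction, scaling, filters, variance settings, the replicate block and single arrays left out.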

Additional observations from a re-analysis of the deposited data

How the results depend on the processing

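The higher CCN2 value with Y15 than with PF-04554878 passed under all 20 alternatives at the first probe, several of which kept the same log2 difference. At the second probe it passed under 18 of the 19 in which it was tested, the exception being no background correction and no normalization (0.23). Against untreated cells, that setting also left CCN2 at 0.10 (first probe, not passed) and -0.068 (second probe) with Y15, AMOTL2 at -0.33 with Y15, and the second CCN2 probe at -0.30 with PF-04554878. Background correction without normalization gave AMOTL2 -0.14 with Y15. Median scaling over the tested probes turned TEAD1 to 0.57 with Y15 and 0.45 with PF-04554878, and the first CCN2 probe to 0.35 with PF-04554878. The cause was not tested. The unnormalized settings were chosen after seeing the data.

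With Y15, the number of members that passed fell from 2 to 1 with median scaling over all probes, and ranged from 1 to 2 with single arrays left out. It was 3 with the stronger background correction (neqc; TEAD1 lower) and with median scaling over the tested probes (TEAD1 higher). Without normalization 2 passed, 1 higher and 1 lower with background correction (CCN2, TEAD1) and both lower without it (AMOTL2, TEAD1). With PF-04554878 it rose from 0 to 2 with either background correction, with median scaling over all probes and with both settings without normalization, and to 3 with median scaling over the tested probes. Over all probes, the Y15 calls went from 6865 (3016 higher, 3849 lower) to 14670 with median scaling over all probes (721 higher, 13949 lower), 12546 over the tested probes (7779 higher, 4767 lower), 16527 and 17847 without normalization (with and without background correction) and 3551 to 6840 with single arrays left out, the lowest without Y15 replicate 1 and 3860 without Y15 replicate 2. With 1 probe per gene the calls numbered 4353 for Y15, 7104 for PF-04554878 and 6923 between the compounds, from fewer probes tested. Median scaling over all probes moved the median gene to -0.78 with Y15 and -0.59 with PF-04554878.

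Same-numbered arrays shared only a number, with correlations of deviations of -0.278, 0.208 and -0.098 in the 3 pairs of groups. With the replicate block, 2, 0 and 1 members passed, as without it. Only 2 arrays per group and a signal close to background limit these values.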
